A study of Mus musculus with 768 samples.

Results

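Cartilage matrix genes were examined in single cancer-associated fibroblasts (CAFs) of mouse mammary tumors, as a set of 10 genes chosen by name. The set held the collagen genes Col2a1, Col9a1, Col9a2, Col9a3, Col11a2 and Col10a1, the proteoglycan core protein gene Acan, the matrilin genes Matn3 and Matn4, and the link protein gene Hapln1. All 10 symbols were found among the 24490 endogenous genes of the deposited tables, and the genes were described across the 727 of 768 wells that held at least 10000 reads outside the ERCC spike-ins, 373 from tumor 1 and 354 from tumor 2. Questions asked of them were which cells read these genes, how many were read together, and what else the cells that read several of them expressed. A cell with at least 1 read of at least 3 of the 10 genes is called a carrier cell.

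All cells belonged to 1 group. They came from 2 tumors of 14-week-old FVB/N-Tg(MMTVPyVT)634Mul/J mice, a strain in which the polyoma middle T oncogene is expressed from the mouse mammary tumor virus promoter and mammary carcinomas arise, and no treated or normal tissue was compared. Sorting had kept cells negative for EpCAM, CD45, CD31 and NG2, the surface markers of epithelial, immune, endothelial and perivascular cells, and 1 cell per well was read by Smart-seq2, a full-length RNA sequencing protocol. Cells of a tumor shared 1 plate. Tumors (n = 2) rather than cells therefore serve as replicates, and a difference between tumors cannot be told apart from one between plates. Depth of the kept wells ran from 10281 to 838772 reads around a median of 219264 in tumor 1, and from 10476 to 1190516 around a median of 198180 in tumor 2.

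Cartilage is built on fibrils of type II collagen, which carry type XI collagen inside and type IX collagen on their surface. Type IX collagen is assembled from the products of Col9a1, Col9a2 and Col9a3, aggrecan (Acan) is the large proteoglycan that holds water in the tissue and is anchored to hyaluronan by link protein (Hapln1), matrilins connect fibrils with other matrix components, and type X collagen (Col10a1) marks hypertrophic chondrocytes. The transcription factor SOX9 drives the collagen II, IX, XI and aggrecan genes in chondrocytes, and SOX10, a factor of the same SoxE family, is best known from neural crest cells.

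The 10 genes lie on 9 chromosomes, and Col9a3 and Matn4 share chromosome 2. In GRCm38.p6, the assembly of the mm10 build the submitters name, Col9a1 spans chr1:24177589-24252738, Col9a2 chr4:121039566-121055325, Col9a3 chr2:180598102-180622192 and Col10a1 chr10:34389981-34397085. Promoter sequence from RefSeq (GRCm38.p6) was at hand for 8 of the 10 genes, in 10 windows of the 250 bases before an annotated transcript start. Such starts need not match the gene starts above. The upstream Col9a1 window runs into the Col9a1 span, and the downstream one lies inside it. Of the 10 windows 4 are shown, for genes that differ in how often they were read with Col9a1. They are both starts of Col9a1, Col11a2 (read with Col9a1 in 16 of its 30 cells) and Col10a1 (read with Col9a1 in 5 of its 65 cells). Each is given from 5′ to 3′ on the plus strand, the coding strand of all of them, and capitals mark matches of the SOX motifs ACAAT or ACAAAG or of the AP-2 motif GCCNNNGGC, searched on both strands.
Col9a1 upstream start, chr1:24177360-24177609: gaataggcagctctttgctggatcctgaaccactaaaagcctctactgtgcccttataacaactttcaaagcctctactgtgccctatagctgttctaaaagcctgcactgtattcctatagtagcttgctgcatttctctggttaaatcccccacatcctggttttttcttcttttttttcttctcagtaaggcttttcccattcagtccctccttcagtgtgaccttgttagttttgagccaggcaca
Col9a1 downstream start, chr1:24194953-24195202: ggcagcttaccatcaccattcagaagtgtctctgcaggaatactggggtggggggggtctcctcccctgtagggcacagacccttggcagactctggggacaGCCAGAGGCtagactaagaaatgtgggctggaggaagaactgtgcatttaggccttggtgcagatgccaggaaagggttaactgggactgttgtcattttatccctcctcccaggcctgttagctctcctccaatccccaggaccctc
Col11a2, chr17:34038888-34039137: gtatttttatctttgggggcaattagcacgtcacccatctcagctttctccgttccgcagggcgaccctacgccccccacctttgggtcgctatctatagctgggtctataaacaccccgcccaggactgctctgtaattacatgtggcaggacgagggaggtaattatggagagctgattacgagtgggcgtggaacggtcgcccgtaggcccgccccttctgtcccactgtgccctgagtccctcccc
Col10a1, chr10:34389731-34389980: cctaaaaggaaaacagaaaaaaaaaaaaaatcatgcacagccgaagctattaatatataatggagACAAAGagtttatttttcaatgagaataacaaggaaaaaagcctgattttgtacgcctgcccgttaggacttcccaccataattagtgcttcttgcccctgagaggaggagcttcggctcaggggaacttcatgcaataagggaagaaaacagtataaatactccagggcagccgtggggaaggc
The upstream Col9a1 window and the Col11a2 window held none of these letters, the downstream Col9a1 window held GCCNNNGGC 148 bases before the start, and the Col10a1 window held ACAAAG 185 bases before the start. Among the 10 windows, ACAAT occurred in 1, ACAAAG in 1 and GCCNNNGGC in 2, against 27.7%, 16.5% and 13.7% of 32851 mouse promoter windows of the same length. A match is only a run of letters, and 250 bases do not reach the distant enhancers of these genes.

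Reads of the cartilage matrix genes were found in few cells and were spread unevenly. At least 1 of the 10 genes was read in 241 of 727 cells (33.1%), in 109 of 373 cells of tumor 1 and in 132 of 354 of tumor 2. Of these 241 cells, 178 read 1 gene, 33 read 2, and 30 read 3 to 7. The cells with no member had a median of 191485 reads, those with 1 member 242093 and those with 2 members 273371, so depth moved with the count of members at its low end, and its part was not tested.

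The fibril-forming gene Col2a1 was read in the most cells, and mostly at a single read. It was found in 55 of 373 cells of tumor 1 (14.7%, 95% exact binomial interval 11.3 to 18.8%) and in 50 of 354 of tumor 2 (14.1%, 10.7 to 18.2%). These intervals, and all others given for shares of cells, cover counting error only. In 82 of the 105 cells it had a single read, and 7 cells had 5 or more. After thinning every cell to 50000 reads, which left out 47 shallower cells, the shares were 4.80% and 3.99%. The most reads in a cell were 234 and 209, both in tumor 2, and the first of these cells alone held 33.7% of all Col2a1 reads.

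The type IX collagen genes behaved differently from Col2a1, with fewer cells and far more reads in each. Col9a1 was read in 10 cells of tumor 1 (2.68%, 1.29 to 4.88%) and 29 of tumor 2 (8.19%, 5.55 to 11.6%), with a median of 35 reads and up to 976 in the cells that had it. Col9a2 was read in 9 cells of tumor 1 (2.41%) and 25 of tumor 2 (7.06%), with a median of 6 reads. Col9a3 was read in 21 (5.63%) and 34 (9.60%) cells, with up to 1370 reads. After thinning its shares were 3.67% and 7.36%. For all 3 chains the share was higher in tumor 2. The counting intervals of the tumors did not overlap for Col9a1 and Col9a2 (1.11 to 4.53% against 4.62 to 10.2% for the latter) and overlapped for Col9a3 (3.52 to 8.48% against 6.74 to 13.2%).

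Col11a2, which encodes a chain of type XI collagen, was read in 9 and 21 cells with at most 75 reads. Col10a1, the gene of type X collagen, was read in 26 cells of tumor 1 (6.97%, 4.60 to 10.0%) and 39 of tumor 2 (11.02%, 7.95 to 14.8%), and 45 of these 65 cells had at least 5 reads. The aggrecan gene Acan was read in 2 cells, with 6 and 5 reads, and Matn3 in 3 cells, with 54, 44 and 11 reads. Matn4 was read in 13 and 8 cells and Hapln1 in 4 and 13. Few cells dominated the read counts, and 80% of the reads of Col9a1 came from 10 cells, of Col9a3 from 13 and of Col10a1 from 7.

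**Figure D1:**
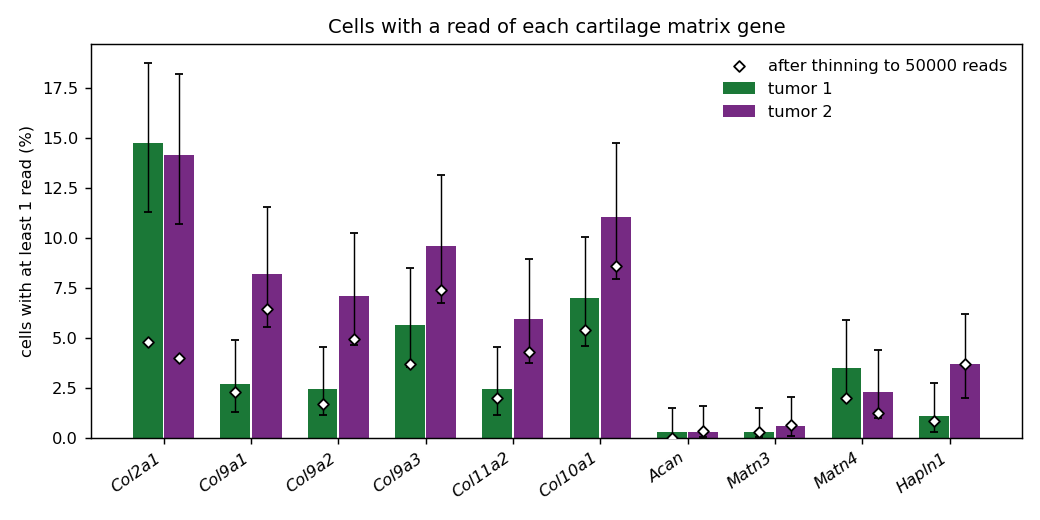
Percent of cells with at least 1 read of each cartilage matrix gene in tumor 1 (373 cells) and tumor 2 (354 cells); bars are shares, lines are 95% exact binomial intervals and diamonds are the shares after every cell was thinned to 50000 reads. Col2a1 falls from 14.7% to 4.80% in tumor 1 on thinning, while Hapln1 stays at 3.67% against 3.68% in tumor 2.

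On the per-length scale of RPKM (reads scaled by gene model length and library size), averaged over all cells of a tumor, Col9a3 stood at 12.3 in tumor 1 and 17.6 in tumor 2, Col10a1 at 6.05 and 23.5, and Col9a1 at 3.14 and 14.4. Next came Col9a2 at 1.51 and 3.14, then Matn4, Hapln1, Col2a1, Col11a2 and Matn3 between 0.0294 and 1.57, and Acan last at 0.00410 and 0.00628. Of the 9 neighbouring pairs in this order, 2 kept their order in the sense that both tumors of the higher gene lay above both of the lower: Col9a2 over Matn4, and Matn3 over Acan. The other neighbours overlapped between tumors, although 4 of these 7 pairs kept 1 order within each tumor (Col10a1 over Col9a1, Col9a1 over Col9a2, Col2a1 over Col11a2 and Col11a2 over Matn3).

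To place the cells that read these genes, all 727 cells were clustered with the 10 genes left out of the genes used. This gave a cluster of 535 cells named vascular CAF-like (vCAF-like), led by the pericyte gene Rgs5, a cluster of 142 matrix CAF-like (mCAF-like) cells led by Dcn, the gene of the proteoglycan decorin, and a cluster of 29 developmental CAF-like (dCAF-like) cells, 9 from tumor 1 and 20 from tumor 2, led by Trf (transferrin) and Mia. Cells reading at least 50% of the list of cell cycle markers made up 8.97% of the vCAF-like cluster and formed no cluster of their own there, while Leiden clustering of the same cells set apart a cCAF-like cluster of 45 cells. The clusters of 10, 6 and 5 cells that remained met no name. In the cluster of 10, 90% of cells read at least 50% of the mCAF-like list and 70% did so for the dCAF-like list. Only the list with the larger share could name it, and its leading genes held none of that list. They did hold the dCAF-like marker Trf. The marker lists come from genes the study chose on these same cells, so the names are not independent evidence. Member values by cluster are given as a description without a test.

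Carrier cells gathered in the dCAF-like cluster. Of the 30 carriers, 23 lay in it (7 of 8 in tumor 1 and 16 of 22 in tumor 2), 3 in the vCAF-like cluster, 2 in the mCAF-like cluster and 2 in the unnamed cluster of 10 cells. Seen from the cluster, 23 of 29 dCAF-like cells were carriers (79.3%, 60.3 to 92.01%), against 2 of 142 mCAF-like (1.41%, 0.171 to 5.00%) and 3 of 535 vCAF-like cells (0.561%, 0.116 to 1.63%). Every dCAF-like cell read at least 1 of the 10 genes, against 45.1% of mCAF-like and 25.4% of vCAF-like cells. The 6 dCAF-like cells that were not carriers had a median of 76613 reads, and the 23 that were had 254778. The study's own, wider clustering radius (3.1 in place of 2.5), which joined the unnamed cluster of 10 cells to the dCAF-like one, put 25 of the 30 carriers in a cluster of 39 cells, 4 of which read Col10a1, and Leiden clustering put 25 in a cluster of 38, also with 4. Carriers were then 64.1% and 65.8% of the dCAF-like cells. Carriers made up 2.14% of the cells of tumor 1 (0.930 to 4.18%) and 6.21% of those of tumor 2 (3.94 to 9.26%).

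**Figure D2:**
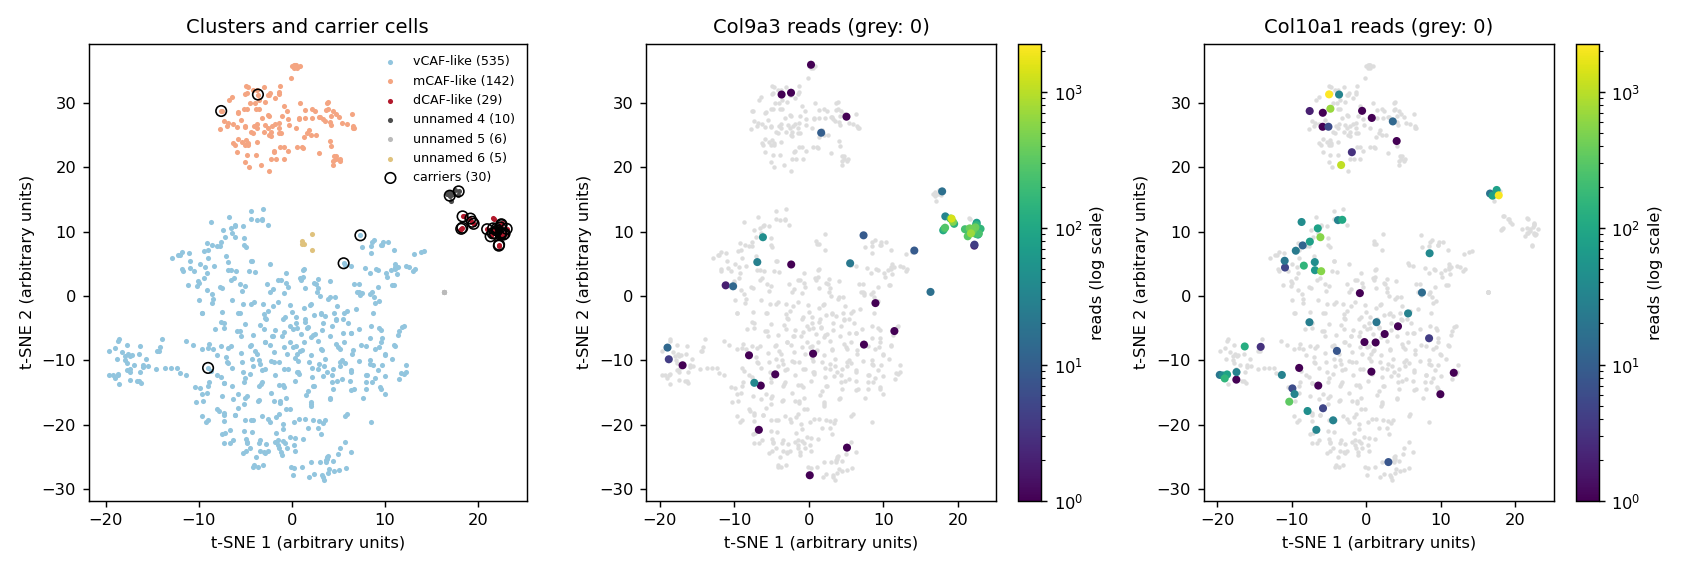
t-SNE map of the 727 cells made without the 10 cartilage matrix genes, with clusters in colour and the 30 carrier cells ringed (left), and reads of Col9a3 (middle) and Col10a1 (right) on a log colour scale. Carriers crowd into the dCAF-like cluster, where 26 of 29 cells read Col9a3 and 0 read Col10a1. At the study's radius of 3.1, 4 of 39 dCAF-like cells read Col10a1.

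Within the dCAF-like cluster the type IX collagen genes were the highest of the set. Col9a3 was read in 26 of 29 cells (9 of 9 in tumor 1 and 17 of 20 in tumor 2), Col9a1 and Col9a2 in 20 each, Col11a2 in 18, Hapln1 in 12, Matn4 in 8 and Col2a1 in 6. In vCAF-like cells the share with a Col9a3 read was 4.11%, with a Col9a1 read 1.87% and with a Col11a2 read 0.748%, at a median depth of 197470 reads against 232294 in dCAF-like cells. Averaged over its cells, Col9a3 stood at 497 RPKM in tumor 1 and 289 in tumor 2, or 393 ± 147 (SD, n = 2 tumors). Col9a1 stood at 90.7 and 224, Col9a2 at 61.8 and 46.4, Matn4 at 41.3 and 12.4, and Hapln1 at 31.4 and 14.7. Each of Col9a3, Col9a1 and Col9a2 was above the next gene of this order in both tumors, and Matn4 and Hapln1 overlapped. In tumor 1 the mean of Matn4 came largely from a cell at 342 RPKM and that of Hapln1 from a cell at 203 RPKM. The cluster held 96.6% of all Col9a3 reads, 93.3% of Col9a1, 91.8% of Hapln1 and 91.0% of Col9a2 reads.

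Col10a1, Matn3 and Acan lay outside that pattern, and Col2a1 followed it in part. No dCAF-like cell had a read of Col10a1, and a count of 0 of 29 leaves an exact 95% interval up to 11.9%. That 0 depends on how the cluster is drawn. At the study's radius of 3.1, 4 of 39 dCAF-like cells read Col10a1, and by Leiden clustering 4 of 38. Matn3 was not read in the 29 cells either, and its 3 cells were 2 mCAF-like and 1 vCAF-like, each with 257 to 1250 Dcn reads. Of the 2 Acan cells 1 was a dCAF-like carrier and the other was mCAF-like. Col2a1 was read in a larger share of mCAF-like cells (26.8%, 19.7 to 34.8%) than of vCAF-like cells (10.8%, 8.34 to 13.8%). After thinning the shares were 7.86% and 2.58%, against 14.8% of dCAF-like cells. Its mean level was 4.74 and 9.79 RPKM in dCAF-like cells of the 2 tumors, against 0.240 and 4.19 in mCAF-like cells, and 4 of the 7 cells with at least 5 reads were dCAF-like. The dCAF-like means, and the mCAF-like mean of tumor 2, came largely from single cells, at 40.5, 154 and 236 RPKM.

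**Figure D3:**
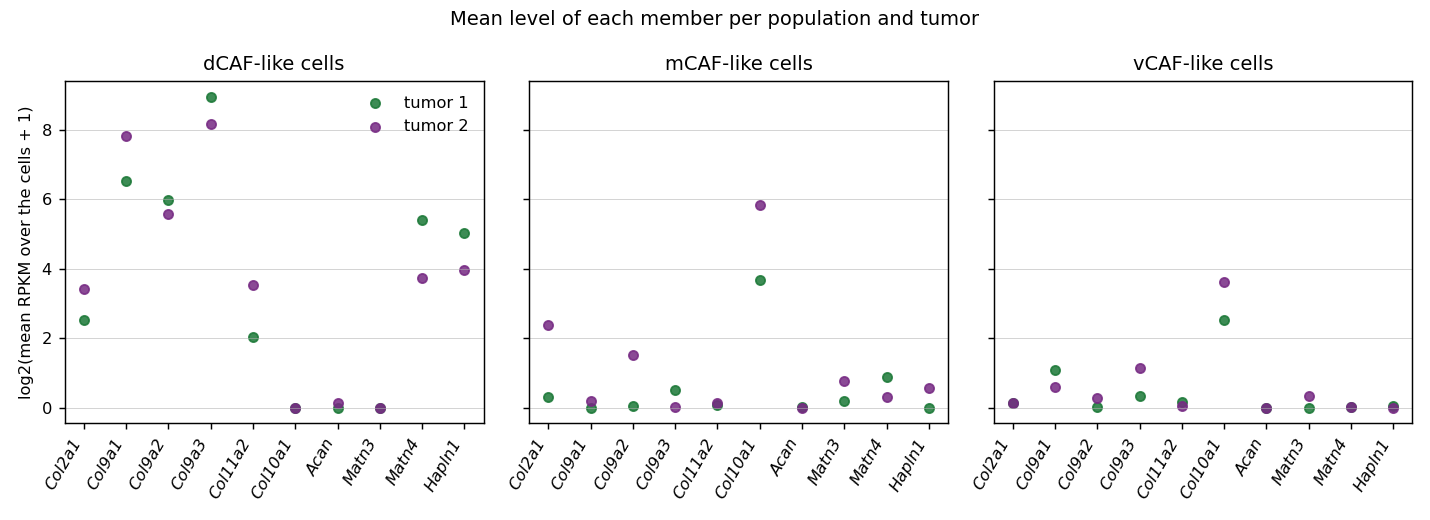
log2(mean RPKM + 1) of each cartilage matrix gene over the cells of the dCAF-like, mCAF-like and vCAF-like clusters, 1 point per tumor (n = 2). Col9a3 averages 497 and 289 RPKM in dCAF-like cells, and Col10a1 is the highest of the 10 in mCAF-like and vCAF-like cells and at 0 in dCAF-like cells.

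All of Col9a1, Col9a2 and Col9a3 were read in 17 cells, 5 of tumor 1 and 12 of tumor 2, of which 15 were dCAF-like. Col9a3 was read with Col9a1 but not Col9a2 in 6 cells and with Col9a2 but not Col9a1 in 6. It was read without the other chains in 26 cells, 20 of them vCAF-like. Of the cells with a Col9a2 read 67.6% also read Col9a3, and 41.8% of those with a Col9a3 read also read Col9a1. Among the 17 cells with all chains, Col9a3 had more RPKM than Col9a2 in 17 and than Col9a1 in 7, with a median ratio of 12.6 to Col9a2 and 0.786 to Col9a1. Sox9 was read in 17 of these 17 cells, Scrg1 in 16 and Sox10 and Mia in 15 each. Col11a2 kept the same company, with 19 of its 30 cells reading Col9a3, and 11 of 17 Hapln1 cells read Col9a1, Col9a3 and Col11a2 each.

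Read counts in the carriers show this cell by cell. The carrier with the most genes, from tumor 2, read 7 of them: 209 reads of Col2a1, 461 of Col9a1, 46 of Col9a2, 55 of Col9a3, 23 of Col11a2, 33 of Matn4 and 2 of Hapln1. In tumor 1 the carrier with the most genes read 6, led by 299 reads of Hapln1 and 160 of Col9a3. Both were dCAF-like, with 94 to 167 reads of Scrg1 and 21 to 162 of Mia. Reads of Rgs5 ranged from 0 to 23 in the 23 dCAF-like carriers, against a median of 1917 in vCAF-like cells, and Dcn had a median of 1 read. The dCAF-like carriers with the most Dcn reads, 1476 and 624, were both from tumor 1. Mia was read in 23 of these 23 cells (median 51 reads), Sox9 in 22, Scrg1 in 21 and Sox10 in 20, and Trf had a median of 2240 reads.

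The 7 carriers outside the cluster were mixed in their other genes. None had a Mia read, while 2 read Scrg1, 2 Sox9, 3 Sox10 and 4 Trf. Both mCAF-like carriers and 1 of the 2 in the unnamed cluster read Col2a1 and Col10a1 together with Hapln1 or a type IX chain and had 301 to 1377 Dcn reads. The other carrier in the unnamed cluster had 82 reads of Col9a1 and 17 of Col9a3 with 29 of Sox9, 13 of Scrg1 and 318 of Trf. Of the 3 vCAF-like carriers, all from tumor 2, 2 had Epcam reads (83 and 58) together with 4534 and 661 reads of Rgs5. The third had 9 reads of Col9a3 and 1 each of Col2a1 and Col9a1. The unnamed cluster itself, 1 cell of tumor 1 and 9 of tumor 2, read Col9a1 in 7 of 10 cells, Col10a1 in 4 and Col9a2 or Col9a3 in 1 each. It read Dcn in 9 cells and Mia and Sox10 in 0.

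At the threshold, the 11 cells with exactly 3 genes had a median of 35 reads over the 10 genes (7 to 639), and 9 of them read at least 2 type IX chains. The 33 cells with exactly 2 had a median of 18 reads (2 to 680), and 3 of them read 2 type IX chains, while 18 read Col2a1 and 17 Col10a1.

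**Figure D4:**
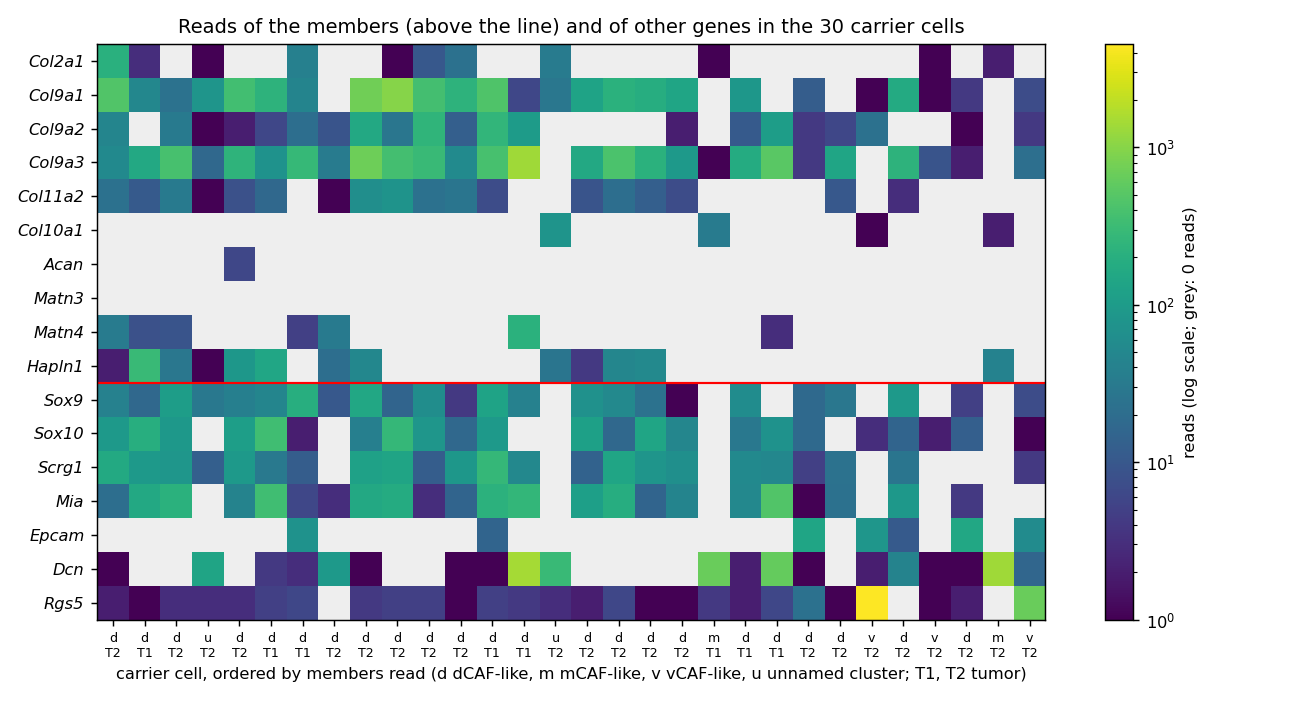
Reads of the 10 cartilage matrix genes (above the red line) and of 7 other genes (below) in each of the 30 carrier cells, on a log colour scale with grey for 0 reads. Type IX chains, Sox9, Sox10, Scrg1 and Mia fill the dCAF-like columns, and Col10a1 appears in 4 columns, none of them dCAF-like.

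Col10a1 was read mostly in cells other than the carriers. Of its 65 cells 61 were not carriers, and 1.23% of its reads fell in carriers, against 95.5% of the reads of Col9a1. Only 5 of the 65 cells had a Col9a1 read, 5 had a Col9a3 read and 1 a Col9a2 read. The cells lay in the vCAF-like (48), mCAF-like (13) and unnamed (4) clusters, at 9.15% of mCAF-like (4.97 to 15.1%) and 8.97% of vCAF-like cells (6.69 to 11.7%), intervals that overlap. The most reads were 2249, 2092 and 1064 in 3 cells of tumor 2, followed by 679 and 561 in 2 cells of tumor 1, and the first of these had 2777 RPKM. Scrg1 and Sox10 were read in 0 and Sox9 in 3 of the 45 cells with at least 5 Col10a1 reads, and a count of 0 of 45 leaves an exact 95% interval up to 7.87%. Mean level over mCAF-like cells was 11.8 RPKM in tumor 1 and 55.8 in tumor 2, and over vCAF-like cells 4.77 and 11.3. The mCAF-like means came largely from a cell at 841 RPKM in tumor 1 and cells at 2777 and 894 RPKM in tumor 2. When the reads of the 65 cells were summed per tumor and compared with all others (edgeR), 0 of 11710 genes passed an adjusted p of 0.05, and 646 had an unadjusted p under 0.05. This comparison was added after the data were seen.

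To ask what else the carriers expressed, the reads of the 30 carriers and of the 697 other cells were summed within each tumor, giving 4 libraries, and edgeR tested the 11710 genes whose RPKM averaged 1 or more across cells. The 10 cartilage matrix genes had chosen the cells and took no part. Further cartilage genes (Lect1, Scrg1, Mia and Chadl), Sox9 and some epithelial markers such as Gata3 rose in the carriers, and collagen genes such as Col3a1 and the vCAF-like marker Des fell. Of the other cells 76.3% were vCAF-like and 76.7% of the carriers were dCAF-like, so carriers and dCAF-like cells cannot be told apart in this comparison. The 6 dCAF-like cells that were not carriers read Mia in 5, Scrg1 and Sox9 in 3 each and Trf in 6, with a mean of 595 RPKM of Mia against 714 in the dCAF-like carriers. At an adjusted p of 0.05, 80 genes (0.683%) were higher and 70 (0.598%) lower, with a lowest adjusted p of 0.0433, close to the threshold. With the tumor as a block, since both sums of a tumor belong to 1 animal, 156 (1.33%) were higher and 126 (1.08%) lower, and 139 of the 150 genes were among them. Carriers had a median of 6093 genes read and the other cells 4290, at median depths of 239124 and 207009 reads. With 2 in place of 3 genes asked of a carrier, 0 genes passed in edgeR (1482 at an unadjusted p under 0.05), and DESeq2 called 1692 genes for the carriers as defined. No doublet caller was run, and the part of wells with more than 1 cell was not tested.

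Genes with the largest rise included several known from cartilage. Lect1, which encodes chondromodulin, was read in 9 of 30 carriers and in 0 of 697 other cells, at 230 CPM (counts scaled to library size but not to gene length) in the carriers of tumor 1 and 89.7 in those of tumor 2. It met the filter of a mean RPKM of at least 1 through the carriers alone. Taking a limit of 3 counts over the other cells, it was at least 6644-fold higher in carriers (adjusted p = 0.0499991). That call rests on the threshold and was lost with DESeq2 size factors and in wells of at least 50000 reads (adjusted p = 0.0508 in both). Scrg1, whose product is secreted during chondrogenic differentiation, stood at 265 and 239 CPM in carriers against 0.748 and 1.501 in the other cells, a log2 fold change of 7.68 ± 0.53 (SE, adjusted p = 0.0433). Mia, also called cartilage-derived retinoic acid-sensitive protein, stood at 713 and 250 CPM against 2.04 and 2.88 (log2 fold change 7.50 ± 0.79, adjusted p = 0.0470). Chadl, a chondroadherin-like matrix protein gene, rose by 5.59 ± 0.59. Without the wells that held an Epcam read, fewer carriers were left and the threshold was missed by Lect1 (adjusted p = 0.0518), Chadl (log2 fold change 5.76, adjusted p = 0.0518) and Mia (8.57, adjusted p = 0.0567), the folds of the latter pair no smaller than with those wells. In thinned cells Scrg1 had a log2 fold change of 6.44 (adjusted p = 0.0679). In each of these the libraries of carriers lay above those of the other cells in both tumors.

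Further genes with a large rise have other roles. Lgr6, a receptor of R-spondins and a stem cell marker, stood at 135 and 150 CPM in carriers against 0.249 and 0.338 (log2 fold change 8.78 ± 0.40, adjusted p = 0.0433). Extl1, a glycosyltransferase of the exostosin family, rose by 6.51 ± 0.48. Capn6, a calpain without protease activity, rose by 6.54 ± 0.68 and Arsi, an arylsulfatase, by 6.59 ± 0.42. Without the Epcam-read wells Extl1 had a log2 fold change of 6.79 (adjusted p = 0.135), Arsi 5.87 (0.0879) and Capn6 6.41 (0.0577), past the threshold in none of them. Others were Atp6v0e2, Plekhb1, Plekhd1, Insl6, BC006965, Cited4 and Eps8l2, with log2 fold changes of 6.04 to 6.57. Not all of these kept the call without the Epcam-read wells, where 16 of the 38 named genes called lost it, Insl6 among them.

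The 10 genes with the largest fall had 0 to 8 reads in the carriers. Tubb4a, a tubulin gene, had 0 reads in the 30 carriers against 60.3 and 65.2 CPM in the other cells of the 2 tumors, which makes it at least 138-fold lower by the same limit (adjusted p = 0.0469). Thbs4 (thrombospondin 4), Olfr78 (an olfactory receptor gene), Synpo2 (an actin-binding protein of muscle) and Dact1 (a regulator of Wnt signalling) each had 1 read in the carriers. For Thbs4 this is a ratio of 671 with a counting interval of 120 to 26521, which takes no account of PCR copies, and it was read in 1 of 30 carriers and 73 of 697 other cells. Calls for the genes with the largest fall depend on how carriers are defined. With at least 2 type IX chains in place of 3 of the 10 genes, an alternative chosen after the data were seen, Thbs4 had a log2 fold change of -4.56 (adjusted p = 0.208), Dact1 -4.402 (0.266) and Kcnmb1 -1.61 (0.672). With at least 2 of the 10 genes they had -0.79 (0.751), -0.47 (0.852) and -1.02 (0.642). All 38 named genes that were called lost the call with that definition, Tubb4a included. Among them Dlk1 had -2.54 (adjusted p = 0.378), H2-M9 -1.74 (0.474) and AI593442 -0.53 (0.738). Dlk1 (a Notch ligand-like protein of precursor cells), Kcnmb1 (a subunit of the smooth muscle potassium channel) and AI593442 had 2 reads each and H2-M9 had 3. Kcne4, a potassium channel subunit gene, stood at 0.473 and 1.55 CPM in carriers against 204 and 248 (log2 fold change -7.76 ± 0.52, adjusted p = 0.0433).

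**Figure D5:**
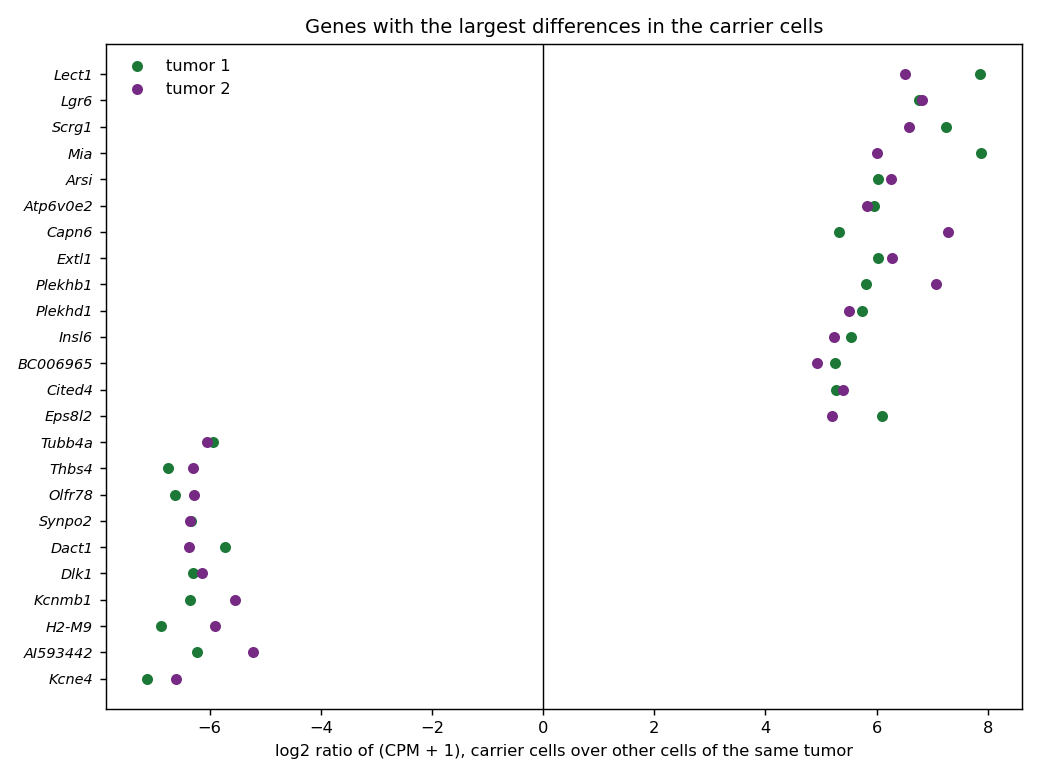
log2 ratio of (CPM + 1) between carrier cells and other cells within tumor 1 and within tumor 2 for genes with the largest and the 10 with the smallest log2 fold change among those that passed the test with the same direction in both tumors. Adding 1 to CPM shrinks the ratio of genes near 0, so Lect1 and Tubb4a are shown smaller than their limits of 6644-fold and 138-fold.

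Among lists of genes related to the set, 4 of 25 tested genes of the cartilage matrix beyond the 10 rose (Lect1, Scrg1, Mia and Chadl) and 0 fell, against 0.683% of all genes that rose, and with the block 7 rose. Scrg1 and Mia are also on the dCAF-like marker list, which the study chose on these cells. Lect1, with 0 reads in the other cells, passed the filter on low values only through the carriers, so its place in this count is no support. The list's median log2 fold change was 1.58, against -0.08 over all genes tested. Of 12 chondrogenic regulators 2 rose and 0 fell. They were Sox9 (233 and 169 CPM in carriers against 5.42 and 10.99, log2 fold change 4.50 ± 0.51, adjusted p = 0.0499991, and 4.14 with an adjusted p of 0.0701 without the Epcam-read wells) and Trps1, a repressor active in growth plate chondrocytes (3.11 ± 0.27, adjusted p = 0.0439). Of 20 genes of chondroitin and proteoglycan synthesis 1 rose, the sulfate transporter Slc26a2 (3.23 ± 0.27, adjusted p = 0.0439), and 0 fell. Of 13 hypertrophic and bone genes 0 passed the test (1 rose with the block), and the collagenase gene Mmp13 had a log2 fold change of -1.55 ± 1.89. Of 14 aggrecan and collagen cleaving enzymes 0 passed in either fit. The medians of these lists were -0.10 for the regulators, -0.63 for chondroitin and proteoglycan synthesis, 0.15 for hypertrophic and bone genes and -1.38 for the cleaving enzymes.

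Of 25 tested collagen genes of other tissues 3 fell, against 0.598% of all genes, and 0 rose, and with the block 10 fell, against 1.08%. The median was -1.95, and 6 of the 25 had a positive fold change. The type III collagen gene Col3a1 fell by 3.37 ± 0.26 on the log2 scale, Col15a1 by 2.72 ± 0.24 and Col5a1 by 2.58 ± 0.21 (all adjusted p = 0.0439). Without the Epcam-read wells their log2 fold changes were -3.25, -2.77 and -2.36, with adjusted p of 0.0584, 0.0846 and 0.0653. Of 27 genes of collagen chain folding and modification 1 fell, Pcolce (-2.67 ± 0.24, adjusted p = 0.0443), which enhances procollagen processing. The median of that list was -0.67, and Pcolce had -2.52 (adjusted p = 0.0661) without the Epcam-read wells.

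Marker lists of cell types were counted in the same test. All 10 dCAF-like markers tested had a positive fold change and 4 passed (Scrg1, Mia, Cd24a and Spint2), 9 with the block. The study chose this list on these cells, so the count is not independent evidence. Of 10 vCAF-like markers 1 fell, Des (desmin, -7.51 ± 0.74, adjusted p = 0.0466), and 4 with the block. Of 10 mCAF-like markers 0 passed (1 fell with the block), and of 8 markers of cycling CAFs (cCAF-like) 0 passed in either fit. Median log2 fold changes were -3.92 for vCAF-like markers (0 of 10 positive), -1.37 for mCAF-like (1 of 10) and -2.87 for cCAF-like (0 of 8). The study also chose these lists on these cells. Of 8 tested genes of the SoxE, neural crest or Schwann list 0 passed (with the block 2 rose). Its member Sox10 had a log2 fold change of 6.60 ± 0.89 (adjusted p = 0.0597, 0.0207 with the block), with 350 and 239 CPM in carriers against 4.39 and 1.15.

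Markers of other cells that the sort should have removed were also counted. Of 18 tested epithelial genes 4 rose (Gata3, Cd24a, Spint2 and Ehf, by 4.30 to 5.50) and 0 fell, and 3 genes of the list are also dCAF-like markers. Its median log2 fold change was 4.398, with 16 of 18 positive, and 6 rose with the block. Without the Epcam-read wells Spint2 had 5.32 (adjusted p = 0.0783) and Ehf 5.07 (adjusted p = 0.0847). Carriers read a median of 7 of the 23 epithelial genes (0 to 18), and the other cells 0 (0 to 14). The list's mean log2(RPKM + 1) was 1.95 in carriers (0 to 5.47 per cell) and 0.136 in other cells (0 to 5.13). The part of epithelial RNA in these results was not tested. Epcam itself was read in 7 of 30 carriers, with 11 to 155 reads, and in 49 of 697 other cells, and had a log2 fold change of 2.90 ± 0.54 (adjusted p = 0.0926). With the 56 Epcam-read wells left out, which leaves 6 carriers in tumor 1 and 17 in tumor 2, 75 genes were higher and 99 lower, and 81 of the 150 genes were among them. Of 7 milk genes and 10 myoepithelial contractile genes 0 passed (with the block 3 milk genes rose, and 2 contractile genes rose and 1 fell). The milk list had a median of 4.43, with 6 of 7 positive, and the contractile list one of 0.94. The endothelial and immune lists were near 0 in carriers: 4 of 7 endothelial and 5 of 7 immune genes had no read, Pecam1 was read in 0 of 30 cells (exact 95% interval up to 11.6%) and Ptprc, which encodes CD45, in 1. Cspg4, which encodes NG2, was read in 581 of 697 other cells and in 20 of 30 carriers and fell in carriers (-3.55 ± 0.30, adjusted p = 0.0439).

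Genes whose levels across cells ran closest to the set were named by correlating log2(RPKM + 1) with the mean of the 10 genes over the 727 cells, for 13270 genes read in at least 10 cells. The highest Pearson coefficients belonged to Scrg1 (0.785), Col4a6 (0.759), Extl1 (0.759), Mia (0.741), Eps8l2 (0.736), Lgr6 (0.730), Tfap2b (0.719), Gata3 (0.711), Tfap2c (0.704) and Fzd9 (0.702). Col4a6 encodes a basement membrane collagen chain, Tfap2b and Tfap2c the AP-2 transcription factors, and Fzd9 a Wnt receptor. Cells share libraries and depth, so these values are descriptions. Among the 10 genes themselves the highest coefficients were between Col9a2 and Col9a3 (0.702) and Col9a1 and Col9a3 (0.676), and Col10a1 had -0.05 to 0.06 with every other gene of the set.

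Sox9 was read in 79 cells, 33 of tumor 1 and 46 of tumor 2, and 24 of the 30 carriers were among them. Of its 79 cells 35.4% read Col9a1 and 38.0% Col9a3, against 1.70% and 3.86% of the cells without a Sox9 read. The Sox9-read cells held 97.3% of all Col9a1 reads, 88.3% of Col9a3 reads and 1.201% of Col10a1 reads. Of the 29 dCAF-like cells, 21 read both Sox9 and Sox10, 4 Sox9 alone, 2 Sox10 alone and 2 neither. That cluster alone held 93.3% of Col9a1 and 96.6% of Col9a3 reads. A link of the set to Sox9 therefore cannot be told apart from membership of the dCAF-like cluster here. When Sox9-read cells were summed and compared with the rest of each tumor, Col9a3 stood at 331 and 310 CPM against 7.97 and 3.70 (log2 fold change 5.76 ± 0.47, adjusted p = 0.0419) and Col9a2 at 47.8 and 56.1 against 1.54 and 0.995 (5.33 ± 0.42, adjusted p = 0.0419). Col9a1, at 107 and 376 CPM against 0.891 and 1.26, had the largest fold change of the 5 tested (7.79 ± 0.80) and missed the threshold (adjusted p = 0.0514). Matn4 had 5.42 ± 1.04 (adjusted p = 0.117) and Col10a1 -3.85 ± 1.71 (adjusted p = 0.420).

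Only 5 of the 10 genes passed the filter on low values here, so their count supports nothing about the set. Over all genes, 26 (0.222%) were higher and 2 (0.0171%) lower in Sox9-read cells. With the tumor as a block, 190 (1.62%) were higher and 106 (0.905%) lower, and Col9a1, Col9a2, Col9a3 and Matn4 passed, with adjusted p of 0.00643, 0.00922, 0.00643 and 0.0310. Without the block, 0 genes of the set passed once wells with an Epcam read were left out or when at least 5 Sox9 reads were asked for, settings in which edgeR called 0 of all 11664 and 11714 genes (1423 and 1672 at an unadjusted p under 0.05). In wells with at least 50000 reads 0 genes of the set passed, beside 0.231% of all genes. In these settings Col9a3 had a log2 fold change of 5.69 (adjusted p = 0.0667) without the Epcam-read wells, 6.01 (0.0820) in wells with at least 50000 reads and 5.84 (0.0578) with at least 5 Sox9 reads. Fitted without the filter, where 0.818% of all genes were higher, Col9a1 (adjusted p = 0.0158), Col9a2 and Col9a3 (both 0.0117) passed, while Col2a1 had a log2 fold change of 4.17 (adjusted p = 0.150), Col11a2 4.54 (0.0864) and Hapln1 5.25 (0.211).

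Sox10 was read in 46 cells, 16 of tumor 1 and 30 of tumor 2, and 23 of them were carriers. Cells with both factors numbered 26, of which 20 were carriers, against 4 of 53 cells with Sox9 alone, 3 of 20 with Sox10 alone and 3 of 628 with neither. As 21 of the 26 cells and 2 of the 20 were dCAF-like, Sox10 and that cluster cannot be told apart here either. Without the block 0 genes of the set passed in Sox10-read cells by edgeR, where 5 genes (0.0427%) were higher and 1 (0.00854%) lower over all genes and 1763 had an unadjusted p under 0.05. DESeq2 called 4 genes of the set, beside 9.1% of all genes. Without the filter edgeR called Col9a1 (adjusted p = 0.0442), Col9a2 (0.0202) and Col9a3 (0.0407), beside 0.569% of all genes higher. Col9a2 had a log2 fold change of 5.81 ± 0.37 (adjusted p = 0.0507), Col9a1 7.29 ± 0.97 (0.0878) and Col9a3 5.25 ± 0.63 (0.0784). With the block, 30 genes (0.256%) were higher and 3 (0.0256%) lower. Col9a1 and Col9a2 rose and Col10a1 fell, with adjusted p of 0.0425, 0.0457 and 0.0457. Col10a1 had 1 read in the Sox10-read cells and 9242 in the others, a ratio of 677 with a counting interval of 122 to 26753 that treats PCR copies as independent and so is too narrow. By cells, 2.17% of Sox10-read cells and 9.40% of the others read it. Matn4, at 4.05 and 6.35 CPM against 3.38 and 1.14, did not pass in either fit (adjusted p = 0.633, 0.742 with the block).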

How the data were processed

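Smart-seq2 libraries of single sorted cells were sequenced by the authors, aligned with STAR to the mouse genome build mm10 and quantified with rpkmforgenes over RefSeq genes. The deposited tables held whole read counts per gene and RPKM values per gene for each well, with 92 ERCC rows that were left out of library sizes. No column of the tables was left unused (0).

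Wells with at least 10000 reads outside ERCC were kept, 727 of 768, and no 2 wells held identical values. Library depths are given with the results, and the exact binomial intervals cover counting error. The 10 genes and all gene lists were chosen with earlier results of these data known. Cells were placed by t-SNE (Rtsne 0.17, R 4.3.3, perplexity 27, 50 seeded runs) on the 557 most variable genes without the 10, and DBSCAN (scikit-learn 1.9.0, radius 2.5). For each cluster only 1 marker list could give the name, the one of which the largest share of cells read at least 50%. The cell cycle list took precedence where its share was at least 50%. The name was given where that share was at least 50% and the 10 leading genes held at least 1 marker of that list. They also had to hold no more markers of another list. Thinning drew 50000 reads per cell without replacement.

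Read counts were summed over cells within each tumor, and edgeR 4.0.16 (quasi-likelihood test, TMM) compared the 4 sums, with Benjamini-Hochberg adjustment over all genes tested at 0.05 and genes of a mean RPKM of at least 1. Both sums of a tumor belong to 1 animal, which pairs them by design. Within a tumor the deviations of both sums correlated at 0.08461, 0.106 and 0.09224 in the 3 tests. With 2 tumors, p-values measure the spread between these 2 plates only. DESeq2 1.42.0, its size factors, no filter, deeper wells, wells without Epcam, thinned cells and other carrier definitions were alternatives. On simulated counts for the carrier comparison (11710 genes), 72 of 100 genes changed 4-fold and 100 of 100 changed 16-fold were called, with 7 of 11510 unchanged genes. The simulation had the same dispersion for every gene and no tumor effect, and it changed only genes above a low limit of expected reads. It does not measure power in the data, where Sox10 missed the threshold at a log2 fold change of 6.60 (edgeR, adjusted p = 0.0597).

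Genes named are the 10, the 15 highest and 10 lowest fold changes past the threshold with 1 direction in both tumors, up to 4 passing genes per list (otherwise up to 3 with the most reads), the 10 genes closest by correlation, and the checks Epcam, Pecam1, Ptprc, Cspg4, Sox9 and Sox10. Of the genes the rule names, 1 is not reported here. Genes named in single cells beside these were chosen after their values were seen. Whether counting used strand is not given in the sources used here.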

Additional observations from a re-analysis of the deposited data

How the results depend on the processing

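Of the 150 genes called between carriers and other cells, the count became 282 with the tumor as a replicate block, 1692 with DESeq2, 296 without the filter, 0 for carriers of at least 2 genes, 411 for at least 4, 63 for at least 5, and 0 at an adjusted p of 0.001. Alternatives chosen after seeing the data gave 30 (at least 2 of the 3 type IX chains), 467 (replicate block without the filter) and 0 for cells with a Col10a1 read, with at least 5 Col10a1 reads, and with the latter and the block. Genes of the set called in Sox9-read cells, 2 at first, became 4 with the block (2.53% of all genes called), with DESeq2 (8.15%) and with the block without the filter (1.34%), and 0 in wells of at least 50000 reads (0.231%), without Epcam-read wells (0%) or with at least 5 Sox9 reads (0%). In Sox10-read cells 0 became 3 with the block (0.282% of all genes), 4 with DESeq2 (9.1%), 3 without the filter (0.661%), 1 in wells of at least 50000 reads (0.111%), 1 in thinned cells (0.0939%), 2 with at least 5 Sox10 reads (1.4%) and 4 with the block without the filter (0.308%). The cause of these shifts was not tested.

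The mean share of cells per gene, 5.10%, was 2.53% at 5 or more reads, 3.18% after thinning to 50000 reads and 2.16% after thinning to 10000, which left 18 carriers. Leaving out a tumor gave 8 to 22 carriers, and the tests could not be repeated because 1 tumor leaves no residual degrees of freedom. Of 38 named genes called in the carrier comparison, 38 lost the call with carriers of at least 2 genes, 16 without Epcam-read wells, 34 with at least 5 genes, 5 with at least 4, 29 with at least 2 type IX chains, 4 in thinned cells, 2 in wells of at least 50000 reads and 2 with DESeq2 size factors. Among all named genes, 14 log2 fold changes turned, none of them called. For Spp1, carriers of at least 2 genes gave -0.053, and with them Mmp13 became 0.049, Mmp2 0.31, Timp3 -0.11, Dcn 0.23, Lum 0.42 and Ccna2 0.28. Mmp13 was 0.61 with at least 2 type IX chains, Mmp2 0.081 without Epcam-read wells, and Timp3 -1.45 with at least 5 genes and -0.040 with the block without the filter. For Cd68, carriers against other cells gave -0.36 with the block, -6.66 in thinned cells and -0.67 with the block without the filter. Col2a1 had 1 read in 82 of its 105 cells, and the part of depth was not tested.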
